A study of Homo sapiens with 6 samples.

Results

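The long non-coding RNAs MALAT1, NEAT1, TUG1, HOTAIR, HOTTIP, HOTAIRM1, GAS5, LINC-PINT, PVT1 and UCA1 are among the best studied regulatory RNAs that code for no protein. The 10 symbols were looked up among the 58381 gene models counted in every library and gave 11 gene models, because LINC-PINT names a pair of adjacent models, ENSG00000226380 and ENSG00000231721. All 11 had enough reads to be tested, although the highest of 6 libraries held only 20 reads for HOTAIR and 27 for HOTTIP. RNA came from 786-0, a widely used human cell line of clear cell renal carcinoma. Every library, the vehicle controls included, carries the label SETD2 KO, a knockout of the enzyme that trimethylates histone H3 along the bodies of transcribed genes. Cells received vehicle (DMSO), 100 nM decitabine or 300 nM decitabine daily for 3 days, had new medium on day 4 and were collected on day 5. Each of the 3 groups has 2 libraries (6 in all), made from total RNA by poly-A enrichment. Decitabine is a nucleoside drug: once incorporated into DNA it traps DNA methyltransferases, and methylation falls as cells divide. The labels name neither the clone or number of clones of the knockout nor separate cultures behind the libraries of a group, so p-values reflect library-to-library spread, which could be purely technical. No library of cells with intact SETD2 was analysed here, and other kidney cells named in the series' design are not used here.

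Long non-coding RNAs of this kind act as RNA, by holding proteins together, by guiding chromatin enzymes to genes, or through the act of their own transcription. MALAT1 collects in nuclear speckles, bodies rich in splicing factors, and NEAT1 is the scaffold of another nuclear body, the paraspeckle. TUG1 has been reported to bind Polycomb proteins. HOTAIR, HOTTIP and HOTAIRM1 are transcribed from within the HOX gene clusters, GAS5 carries small nucleolar RNAs (snoRNAs) in its introns, LINC-PINT is a target of p53, PVT1 lies beside MYC, and UCA1 was found in urothelial carcinoma.

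The 3′ ends of the 2 most heavily read members bear on how well such libraries capture them. MALAT1 and the long form of NEAT1 do not end in a poly(A) tail: RNase P cuts them, and a U-rich motif folds with an A-rich tract into a triple helix that protects the end. Poly-A enrichment therefore captures such transcripts incompletely, and a level here is a level among captured RNA. The elements are printed from GENCODE v29 transcripts on GRCh38, with the searched motifs TTTTGCT and AAAGCAA in capitals. Both motifs, in that order, at most 40 bases apart and on the transcribed strand alone, lay in the last 500 bases of 59 of 168622 annotated transcripts, or 0.035%. The 2 elements, at chr11:65506061-65506124 (+ strand) in MALAT1 and chr11:65445480-65445540 (+ strand) in NEAT1, are shown because these members had the lowest log2 fold changes of the set at 300 nM against DMSO, before any correction for length.
MALAT1-202 3′ element: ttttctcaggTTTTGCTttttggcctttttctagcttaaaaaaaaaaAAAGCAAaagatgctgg
NEAT1-202 3′ element: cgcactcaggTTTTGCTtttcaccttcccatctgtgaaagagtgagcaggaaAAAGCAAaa
In NEAT1 2 bases of the annotated transcript followed the A-rich motif, while in MALAT1 355 did.

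Decitabine acts on methylation of CpG dinucleotides, so the promoters of 3 members called lower at 300 nM against DMSO are printed with each CG in capitals. The GAS5 call did not hold once exon length and GC content were fitted. They are RefSeq windows of 300 bases on GRCh38.p14, from 250 bases before the start site to 50 after it. The windows are chr11:65497488-65497787 (+ strand) for MALAT1, chr22:30969015-30969314 (+ strand) for TUG1 and chr1:173868996-173869295 (- strand) for GAS5.
MALAT1 promoter: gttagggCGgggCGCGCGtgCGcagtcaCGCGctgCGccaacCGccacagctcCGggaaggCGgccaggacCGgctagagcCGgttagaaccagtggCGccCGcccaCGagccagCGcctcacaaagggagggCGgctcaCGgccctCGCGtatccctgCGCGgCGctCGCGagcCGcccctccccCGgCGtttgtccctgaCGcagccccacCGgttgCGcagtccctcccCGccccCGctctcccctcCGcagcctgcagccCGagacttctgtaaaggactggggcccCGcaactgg
TUG1 promoter: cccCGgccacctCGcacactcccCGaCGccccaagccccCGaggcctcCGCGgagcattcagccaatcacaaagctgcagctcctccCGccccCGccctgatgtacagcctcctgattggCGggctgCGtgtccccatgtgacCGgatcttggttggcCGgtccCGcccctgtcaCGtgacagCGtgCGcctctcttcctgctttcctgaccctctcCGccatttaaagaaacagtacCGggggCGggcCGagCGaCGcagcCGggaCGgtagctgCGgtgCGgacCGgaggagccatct
GAS5 promoter: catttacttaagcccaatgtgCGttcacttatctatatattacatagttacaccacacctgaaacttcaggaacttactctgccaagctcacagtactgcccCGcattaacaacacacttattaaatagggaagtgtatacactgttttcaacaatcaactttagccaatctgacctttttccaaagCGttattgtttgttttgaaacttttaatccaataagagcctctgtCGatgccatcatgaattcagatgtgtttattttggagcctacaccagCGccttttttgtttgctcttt
The MALAT1 window holds 37 CG, a number that 11.3% of 35116 promoters of the same length reach, and the TUG1 window holds 28, reached by 26.2%. The GAS5 window holds 5, which 70.4% of promoters reach, and its start site lies 163 bases from the 5′ end of the counted model. Over all promoters the median was 14. For HOTTIP the window held 41 CG, but its start site lies 1846 bases inside the counted model. The windows of the LINC-PINT models held 23 CG (ENSG00000231721) and 9 CG (ENSG00000226380). The windows of NEAT1, HOTAIR, HOTAIRM1, PVT1 and UCA1 are not shown. Methylation itself was not measured in these libraries.

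Reads assigned to genes numbered 89159112 to 96646427 per library. The mates of a read pair were counted separately and without regard to strand, so a read from an antisense partner in a shared exon cannot be told from a read of the member, and reads in exons of more than one gene were not counted. A count of 0 would allow up to 3 reads, or 0.0310 to 0.0336 CPM, by the counting error of independent reads. Mates counted separately are not independent, so the limit in reads is higher. CPM, the usual normalised read count, is scaled here by TMM, which corrects for the makeup of each library. SETD2 was at 77.9 and 81.2 CPM with DMSO, 39.8 and 49.1 CPM at 100 nM and 16.4 and 21.7 CPM at 300 nM, and whole-gene reads do not check the knockout label. Of 12 markers of renal and clear cell carcinoma cells, 9 reached 1 CPM in the DMSO group. CA9, also among the 12, had 0 reads there. Summed markers of blood cells lay at 4.88 to 6.85 CPM at 300 nM and 0.801 to 1.06 CPM with DMSO, and of endothelium at 4.87 to 5.40 CPM at 300 nM and 1.20 to 1.46 CPM with DMSO. Their part in the members' changes was not tested. Libraries within a group differed beyond the counting error of independent reads, with a mean chi-square per gene of 8.4 (DMSO), 23.0 (100 nM) and 41.1 (300 nM). Counting mates separately also raises these values.

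The 11 gene models did not all move alike. MALAT1, NEAT1, TUG1 and HOTAIRM1 were lower at both doses, and lower at 300 nM than at 100 nM, though NEAT1 and TUG1 lost the 100 nM call once exon length and GC content were fitted. PVT1 and UCA1 were higher at both doses. GAS5 was lower at 300 nM and not at 100 nM, a call that the same correction removed. HOTAIR, HOTTIP and both LINC-PINT models passed the threshold in neither comparison with DMSO. The correction also added calls against DMSO, with GAS5 higher at 100 nM (0.33) and LINC-PINT ENSG00000226380 higher at 300 nM (1.49). Calls are edgeR quasi-likelihood tests in a single fit of all 6 libraries, Benjamini-Hochberg adjusted over 23160 genes, with an adjusted p under 0.05.

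At 100 nM against DMSO, 2 of 11 models were called higher and 4 lower. Over all genes tested 42.7% were called, 24.0% higher and 18.7% lower, and over the 4247 long non-coding RNA genes 29.8% were called, 20.2% higher and 9.65% lower. At 300 nM against DMSO, 2 were called higher and 5 lower, beside 65.9% of all genes (34.8% higher, 31.1% lower) and 50.3% of long non-coding RNA genes (24.8% higher, 25.5% lower). At 300 nM against 100 nM, 1 was called higher and 6 lower, beside 43.4% of all genes (20.0% higher, 23.4% lower) and 20.8% of long non-coding RNA genes (5.98% higher, 14.8% lower). The last split of all genes depended on scaling, with 4623 higher and 5431 lower under TMM and 6314 higher and 4239 lower under upper-quartile factors. The median log2 fold change of the 11 models was 0.24, -0.48 and -0.63 in the 3 comparisons, and that of all genes 0.03, 0.05 and -0.04. Both libraries of the first-named group lay below both of the other for 4, 6 and 6 models and above for 5, 4 and 2. Over all genes that was so for 36.2%, 40.6% and 37.8% (below) and for 38.6%, 43.2% and 35.3% (above). The comparisons with DMSO share the same DMSO libraries. In bulk RNA, fewer cells that express a gene and less of its RNA per cell cannot be told apart.

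**Figure D1:**
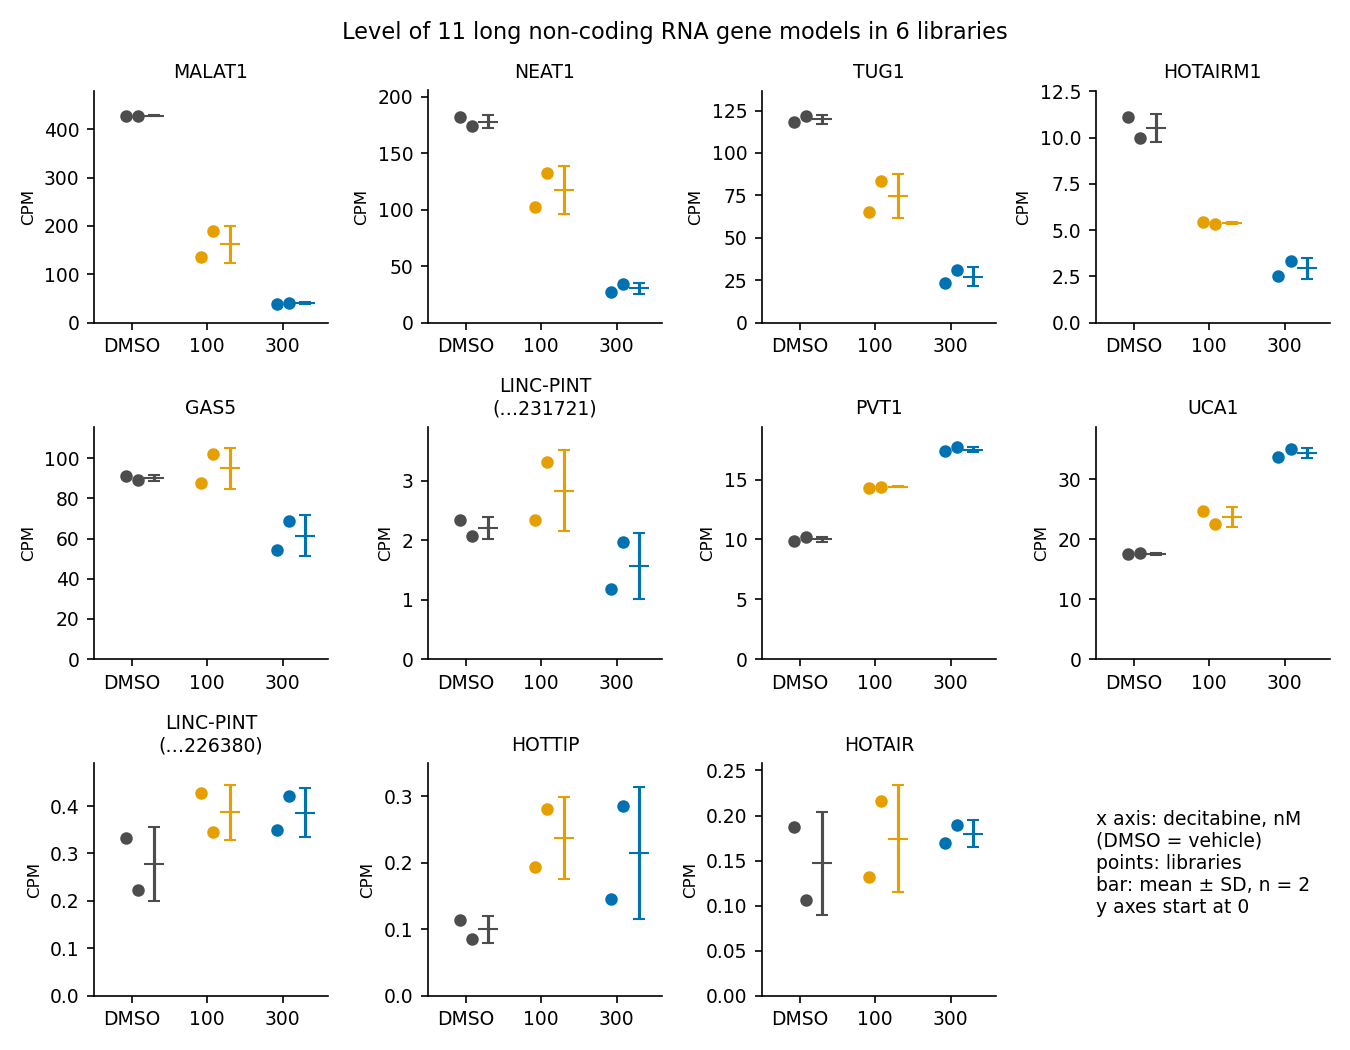
CPM of each gene model in every library, with DMSO, 100 nM and 300 nM decitabine along the x axis; points are libraries and the bar beside them is the mean ± SD (n = 2). MALAT1 drops to 38.7 and 41.4 CPM at 300 nM, against 428.3 and 427.0 CPM with DMSO. The means of PVT1 and UCA1 climb with dose, but between the doses only UCA1 was called higher in the main fit.

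MALAT1 (ENSG00000251562, GRCh38 chr11:65497688-65506516, + strand, merged into a single exon) had the largest change of the set. It stood at 428.3 and 427.0 CPM with DMSO, 134.8 and 188.6 CPM at 100 nM and 38.7 and 41.4 CPM at 300 nM. No libraries of different groups overlapped, and the 100 nM libraries lay between the others. MALAT1 fell by 1.40 on the log2 scale at 100 nM (SE 0.13, edgeR adjusted p = 1.3e-07) and by 3.42 at 300 nM (SE 0.14, edgeR adjusted p = 2.0e-12), where its level was 10.7-fold below DMSO. Between the doses it fell by 2.01 (SE 0.13, edgeR adjusted p = 1.9e-08). Only 2.4% of the 23160 genes had a lower log2 fold change at 300 nM against DMSO.

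NEAT1 (ENSG00000245532, chr11:65422774-65445540, + strand), on the same arm of the chromosome as MALAT1, had the larger part of its log2 decrease between the doses. Its level was 182.3 and 174.0 CPM with DMSO, 102.7 and 132.5 CPM at 100 nM and 26.8 and 34.0 CPM at 300 nM. The groups did not overlap, and the 100 nM libraries lay between the others. The log2 fold change was -0.60 at 100 nM (SE 0.13, edgeR adjusted p = 0.001), -2.55 at 300 nM (SE 0.14, edgeR adjusted p = 6.5e-11) and -1.95 between the doses (SE 0.14, edgeR adjusted p = 2.9e-08). NEAT1 has a short, polyadenylated form and a long form, and the counted model of 22.77 kb spans both, so the files do not tell the forms apart.

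TUG1 (ENSG00000253352, chr22:30969245-30979395, + strand) followed the same order. It was at 118.0 and 121.9 CPM with DMSO, 65.2 and 83.7 CPM at 100 nM and 23.1 and 31.2 CPM at 300 nM. Each group again lay apart from the others. TUG1 fell by 0.69 on the log2 scale at 100 nM (SE 0.14, edgeR adjusted p = 7.8e-04), by 2.14 at 300 nM (SE 0.15, edgeR adjusted p = 1.1e-09) and by 1.45 between the doses (SE 0.14, edgeR adjusted p = 7.7e-07).

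These 3 RNAs are long and low in GC, and genes with long exons were lower in general. MALAT1 has 8.83 kb of exon at 40.34% GC, NEAT1 22.77 kb at 44.05% and TUG1 10.15 kb at 43.10%, beside medians of 3.47 kb and 48.9% over all genes with a test. At 300 nM against DMSO the median log2 fold change was 0.34 for genes of 2 to 4 kb, -0.51 for 8 to 16 kb and -0.81 over 16 kb. With per-gene offsets fitted to exon length and GC content, the changes at 300 nM against DMSO were -1.93 for MALAT1 (edgeR adjusted p = 3.2e-10), -1.23 for NEAT1 (adjusted p = 1.8e-08) and -1.03 for TUG1 (adjusted p = 3.2e-07). At 100 nM against DMSO MALAT1 kept its call (-0.74, edgeR adjusted p = 6.5e-06), NEAT1 turned to 0.05 (adjusted p = 0.616) and TUG1 came to -0.16 (adjusted p = 0.156), neither called. Length and GC moved with these results, and their part in them was not tested beyond these offsets.

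**Figure D2:**
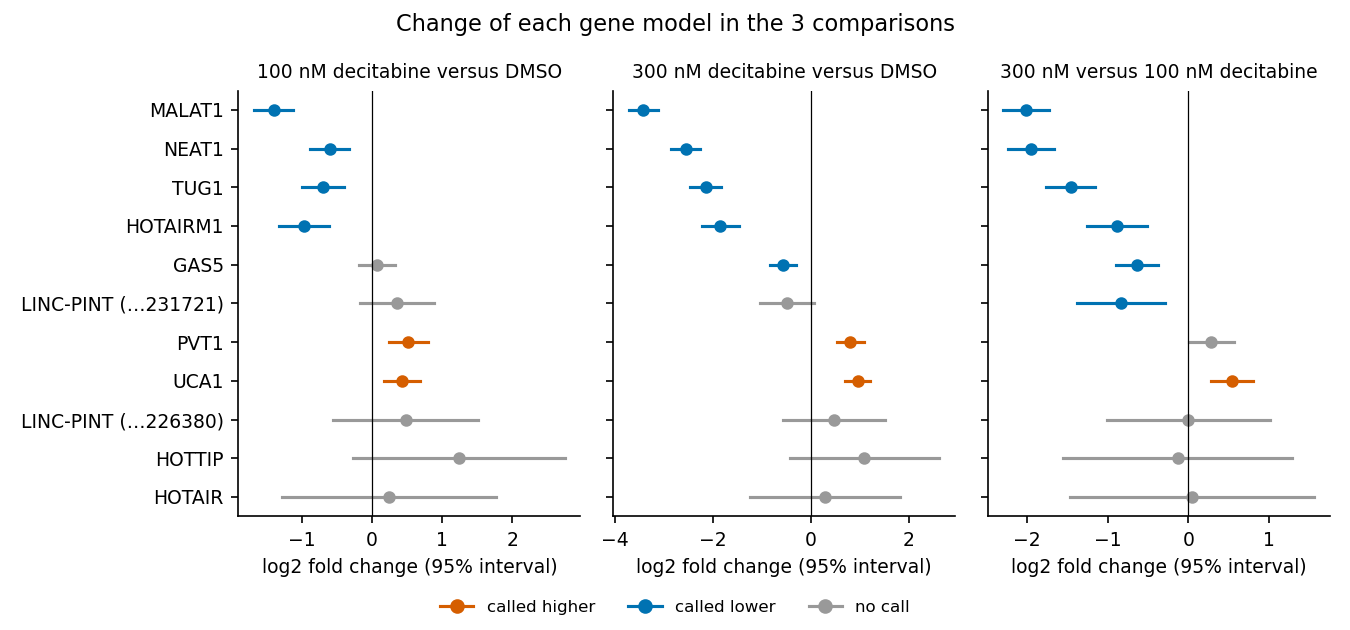
Log2 fold change (x axis) of each gene model in the 3 comparisons, with its 95% interval; orange is called higher, blue called lower and grey no call by the edgeR test. MALAT1, NEAT1, TUG1 and HOTAIRM1 are called lower in all 3 panels, though NEAT1 and TUG1 lose the 100 nM call with exon length and GC offsets.

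HOTAIRM1 (ENSG00000233429, chr7:27095647-27100265, + strand), which lies in the HOXA cluster and is known from myeloid differentiation, fell at a short length. It had 11.1 and 9.98 CPM with DMSO, 5.43 and 5.35 CPM at 100 nM and 2.51 and 3.34 CPM at 300 nM. The groups stood clear of each other, and the 100 nM libraries nearly coincided. The fold change was -0.96 on the log2 scale at 100 nM (SE 0.17, edgeR adjusted p = 1.6e-04), -1.84 at 300 nM (SE 0.17, edgeR adjusted p = 6.6e-08) and -0.88 between the doses (SE 0.17, edgeR adjusted p = 6.3e-04). Its exons measure 1496 bases, and with the length and GC offsets the changes were -1.03, -1.81 and -0.78. Of its exon bases 44.9% belong to other annotated genes too, the largest share of the set.

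HOTTIP (ENSG00000243766, chr7:27198575-27207259, + strand), which in human cells binds WDR5 and directs histone methylation to the HOXA genes beside it, was close to the limit of detection. It had 11 and 8 reads with DMSO, 19 and 26 reads at 100 nM and 12 and 27 reads at 300 nM. Each decitabine library was above both DMSO libraries after scaling, one of the 300 nM libraries only just. The log2 fold change was 1.24 at 100 nM (95% interval -0.27 to 2.75, edgeR adjusted p = 0.175) and 1.10 at 300 nM (-0.42 to 2.63, edgeR adjusted p = 0.183), so a difference was not detectable at this depth.

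HOTAIR (ENSG00000228630, chr12:53962308-53974956, - strand), transcribed from the HOXC cluster and known for recruiting Polycomb repressive complexes, was as sparse. Its counts were 18 and 10 reads with DMSO, 13 and 20 reads at 100 nM and 14 and 18 reads at 300 nM, and the groups overlapped throughout. The interval of the log2 fold change ran from -1.28 to 1.77 at 100 nM (edgeR adjusted p = 0.815) and from -1.24 to 1.82 at 300 nM (edgeR adjusted p = 0.737), so neither a doubling nor a halving can be told from no change here.

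The HOX genes beside these RNAs moved in both directions. Without the offsets, 24.0% of all genes tested were higher and 18.7% lower at 100 nM against DMSO, and 34.8% and 31.1% at 300 nM. Of 15 HOXA cluster genes tested, 1 was higher and 7 were lower at 100 nM, and 2 were higher and 9 lower at 300 nM, with a median log2 fold change of -0.47 and -0.36. With the length and GC offsets it was 1 higher and 10 lower at 100 nM, and 1 higher and 11 lower at 300 nM. Only 1 HOXA gene was higher at 300 nM without DMSO library 1 or 300 nM library 1, and 2 were higher at 100 nM without 300 nM library 2. HOXA2, whose model ends 0.1 kb from that of HOTAIRM1, fell to 5.91 and 6.23 CPM at 300 nM, against 15.4 and 15.5 CPM with DMSO (log2 fold change -1.35, edgeR adjusted p = 2.6e-07; -1.99 with the offsets). Next to HOTTIP, HOXA13 was at 0.749 and 1.30 CPM at 300 nM and 2.41 and 2.31 CPM with DMSO (-1.20, edgeR adjusted p = 7.1e-04; -0.59 with the offsets), and shares 86 exon bases with HOTTIP on the opposite strand. HOXA11, 13.4 kb from HOTTIP, rose to 12.9 and 11.2 CPM at 300 nM, against 3.81 and 3.56 CPM with DMSO (1.71, edgeR adjusted p = 3.5e-08; 0.97 with the offsets). HOXA3 (-1.31), HOXA9 (-1.20) and the antisense RNA HOXA10-AS (-2.03, and -2.84 with the offsets) were called lower at 300 nM. Of 9 HOXC genes tested, 1 was higher and 1 lower at 100 nM, and 2 (HOXC6 at 0.34 and HOXC9 at 0.45) were higher and 1 (HOXC4 at -0.63) lower at 300 nM. With any one DMSO or 100 nM library left out, no HOXC gene was called higher at 100 nM. None was called higher at 300 nM with either DMSO library or 300 nM library 1 left out, and none lower at 100 nM with either DMSO library or 100 nM library 2 left out. With the offsets no HOXC gene was higher and 2 were lower at 100 nM, and none was higher and 6 were lower at 300 nM, where HOXC9 was called at -0.30 and HOXC6 (-0.20) was not called. HOXC11 (-0.42, edgeR adjusted p = 0.487), which overlaps the span of HOTAIR, and HOXC10 (0.25, edgeR adjusted p = 0.155), 10.1 kb from it, had no call at 300 nM. With the offsets HOXC10 turned to -0.41 and was called lower there (edgeR adjusted p = 0.009).

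GAS5 (ENSG00000234741, chr1:173863900-173868882, - strand), named for its rise in growth-arrested cells, hosts snoRNAs in its introns, and its spliced RNA is degraded by nonsense-mediated decay. Its level was 91.3 and 89.3 CPM with DMSO, 87.7 and 102.2 CPM at 100 nM and 54.2 and 68.5 CPM at 300 nM. The 100 nM libraries lay on either side of DMSO, and the 300 nM libraries lay below all others. The log2 fold change was 0.07 at 100 nM (SE 0.12, edgeR adjusted p = 0.675), -0.56 at 300 nM (SE 0.12, edgeR adjusted p = 7.9e-04) and -0.63 between the doses (SE 0.12, edgeR adjusted p = 5.8e-04). With the length and GC offsets the call moved: 0.33 at 100 nM (edgeR adjusted p = 0.002), 0.15 at 300 nM (adjusted p = 0.101) and -0.18 between the doses (adjusted p = 0.073). GAS5 has 3.63 kb of exon at 42.23% GC.

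Other snoRNA host genes were split, with 3 of 25 higher and 10 lower at 100 nM and 5 higher and 10 lower at 300 nM. Over all genes tested 24.0% were higher and 18.7% lower at 100 nM, and 34.8% and 31.1% at 300 nM. SNHG15 rose to 66.1 and 57.5 CPM at 300 nM, against 25.6 and 25.6 CPM with DMSO (log2 fold change 1.27), and SNHG3 (-1.25), DANCR (-1.37) and TAF1D (-1.97) fell. With the offsets TAF1D came to 0.02 (edgeR adjusted p = 0.819) and DANCR to -2.06. Of 17 genes of nonsense-mediated decay, 2 were higher and 8 lower at 100 nM and 5 higher and 8 lower at 300 nM. The decay factors UPF2 (-2.91) and UPF3B (-2.77), the kinase SMG1 (-2.70) and the decapping cofactor PNRC2 (-1.73) were called lower at 300 nM. With the offsets they stayed called at smaller sizes: UPF2 at -1.65, UPF3B at -2.05, SMG1 at -1.19 and PNRC2 at -0.40. Among the 5 decay genes called higher at 300 nM were SMG5 (0.82), EIF4A3 (0.70) and UPF1 (0.29). With the offsets SMG5 was 0.30, EIF4A3 1.00 and UPF1 -0.03, the last not called (edgeR adjusted p = 0.645). The median of the decay genes at 300 nM was 0.04 without the offsets, beside 0.05 over all genes. The counts with the offsets for decay genes were 3 higher and 5 lower at 100 nM and 6 higher and 7 lower at 300 nM, and for snoRNA hosts 7 higher and 11 lower at 100 nM and 6 higher and 13 lower at 300 nM. Single libraries moved several of these counts. For decay genes at 100 nM, 5 were lower without DMSO library 1 or 100 nM library 2, 4 without DMSO library 2 and 3 without 100 nM library 1, and 1 was higher without 100 nM library 1 and 0 without 100 nM library 2 or either DMSO library. At 300 nM 3 decay genes were higher without DMSO library 2. For snoRNA hosts at 100 nM, 1 was higher without either DMSO library, 5 were higher without either 300 nM library and 6 were lower without DMSO library 2. At 300 nM 2 hosts were higher without DMSO library 1 and 3 without DMSO library 2.

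LINC-PINT is a p53-induced RNA of the long arm of chromosome 7 that has been found with Polycomb proteins. The model that carries most of its reads (ENSG00000231721, chr7:130938963-131110176, - strand) had 2.33 and 2.07 CPM with DMSO, 2.34 and 3.31 CPM at 100 nM and 1.18 and 1.96 CPM at 300 nM. The 300 nM libraries were the lowest, and one 100 nM library stood well above the rest. It was lower at 300 nM than at 100 nM by 0.84 on the log2 scale (SE 0.26, edgeR adjusted p = 0.014), and neither dose passed the threshold against DMSO (0.36, edgeR adjusted p = 0.273 at 100 nM, and -0.48, edgeR adjusted p = 0.115 at 300 nM). The call between the doses rested on single libraries: without 100 nM library 2 it was -0.57 and without 300 nM library 1 it was -0.52 (edgeR adjusted p = 0.152 in both). It was also lost with the offsets (-0.66, edgeR adjusted p = 0.051). Without 300 nM library 2, the model was called lower at 300 nM against DMSO (-0.89, edgeR adjusted p = 0.014).

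The second LINC-PINT model (ENSG00000226380, chr7:130876809-130913310, - strand) had 32 and 21 reads with DMSO, 42 and 32 reads at 100 nM and 29 and 40 reads at 300 nM. Its decitabine libraries lay above DMSO after scaling, by little. The log2 fold change was 0.48 at 100 nM (edgeR adjusted p = 0.463) and 0.47 at 300 nM (adjusted p = 0.406), and with the offsets it was 1.49 at 300 nM (adjusted p = 0.015). The LINC-PINT models share 1958 and 2010 exon bases with AC016831.6 on the same strand, and reads in those bases were given to no gene.

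Of 19 chromatin proteins known as partners of the HOX RNAs, 1 was higher and 8 lower at 100 nM, and 3 were higher and 10 lower at 300 nM. The shares over all genes tested were 24.0% higher and 18.7% lower at 100 nM, and 34.8% and 31.1% at 300 nM. The Polycomb subunit SUZ12 was at 16.2 and 21.5 CPM at 300 nM and 61.5 and 69.7 CPM with DMSO (log2 fold change -1.80, edgeR adjusted p = 6.4e-09), and the Polycomb accessory protein MTF2 (-2.15), the repressor REST (-2.23) and the histone methyltransferase KMT2A (-1.71) were also called lower. With the offsets 8 were higher and 6 lower at 100 nM, and 9 higher and 7 lower at 300 nM. SUZ12 was then -0.15 at 300 nM (edgeR adjusted p = 0.100), and MTF2 (-0.55), REST (-0.75) and KMT2A (-0.83) stayed called lower. Among those called higher with the offsets at 300 nM were EED (1.64), RBBP4 (1.11), DPY30 (0.85) and RBBP7 (0.71). Without the offsets EED (-0.66) and RBBP7 (-0.40) were called lower, and RBBP4 and DPY30 were not called. WDR5, a partner of HOTTIP, was called higher at 300 nM without the offsets (0.44, edgeR adjusted p = 0.002) and lower with them (-0.20, adjusted p = 0.015). The count lower at 100 nM was 5 without DMSO library 1, DMSO library 2 or 100 nM library 1. The count higher there was 0 without DMSO library 1 and 2 without either 300 nM library.

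PVT1 (ENSG00000249859, chr8:127794533-128101253, + strand), a multi-exon RNA next to MYC that is gained with it in many tumours, was higher at both doses. It had 9.87 and 10.2 CPM with DMSO, 14.3 and 14.4 CPM at 100 nM and 17.4 and 17.7 CPM at 300 nM. The libraries of a group nearly coincided and the groups were well apart. PVT1 rose by 0.52 on the log2 scale at 100 nM (SE 0.13, edgeR adjusted p = 0.004) and by 0.80 at 300 nM (SE 0.13, edgeR adjusted p = 4.1e-05). Between the doses the difference was 0.28 (SE 0.13, edgeR adjusted p = 0.087). That last difference passed under other scalings (0.36 with RLE size factors, edgeR adjusted p = 0.034) and did not with the length and GC offsets (0.10, edgeR adjusted p = 0.437). At 300 nM against DMSO the value with the offsets was 0.49 (edgeR adjusted p = 4.0e-04), and the 100 nM call was lost without DMSO library 1 (0.50, edgeR adjusted p = 0.067). MYC, 53.1 kb away, was at 136.8 and 122.1 CPM at 300 nM and 54.7 and 49.4 CPM with DMSO, a rise of 1.31 (SE 0.11, edgeR adjusted p = 2.0e-08), and rose by 0.77 at 100 nM (edgeR adjusted p = 2.6e-05). With the offsets MYC was 0.65 at 300 nM (edgeR adjusted p = 8.1e-06).

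UCA1 (ENSG00000214049, chr19:15828206-15836326, + strand), an RNA first described in bladder carcinoma, had the largest called rise of the set at 300 nM. Its level was 17.5 and 17.8 CPM with DMSO, 24.8 and 22.5 CPM at 100 nM and 33.8 and 35.1 CPM at 300 nM, with no overlap between groups. UCA1 rose by 0.43 on the log2 scale at 100 nM (SE 0.12, edgeR adjusted p = 0.009), by 0.97 at 300 nM (SE 0.12, edgeR adjusted p = 2.4e-06) and by 0.54 between the doses (SE 0.12, edgeR adjusted p = 0.002). The 100 nM call did not hold without DMSO library 1 (0.42, edgeR adjusted p = 0.106), DMSO library 2 (0.44, adjusted p = 0.091) or 100 nM library 1 (0.38, adjusted p = 0.082). UCA1 shares 489 exon bases with LINC01764 on the opposite strand, which had 39 reads at 300 nM and 3 with DMSO over both libraries of a group, beside 6119 and 3352 reads for UCA1.

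**Figure D3:**
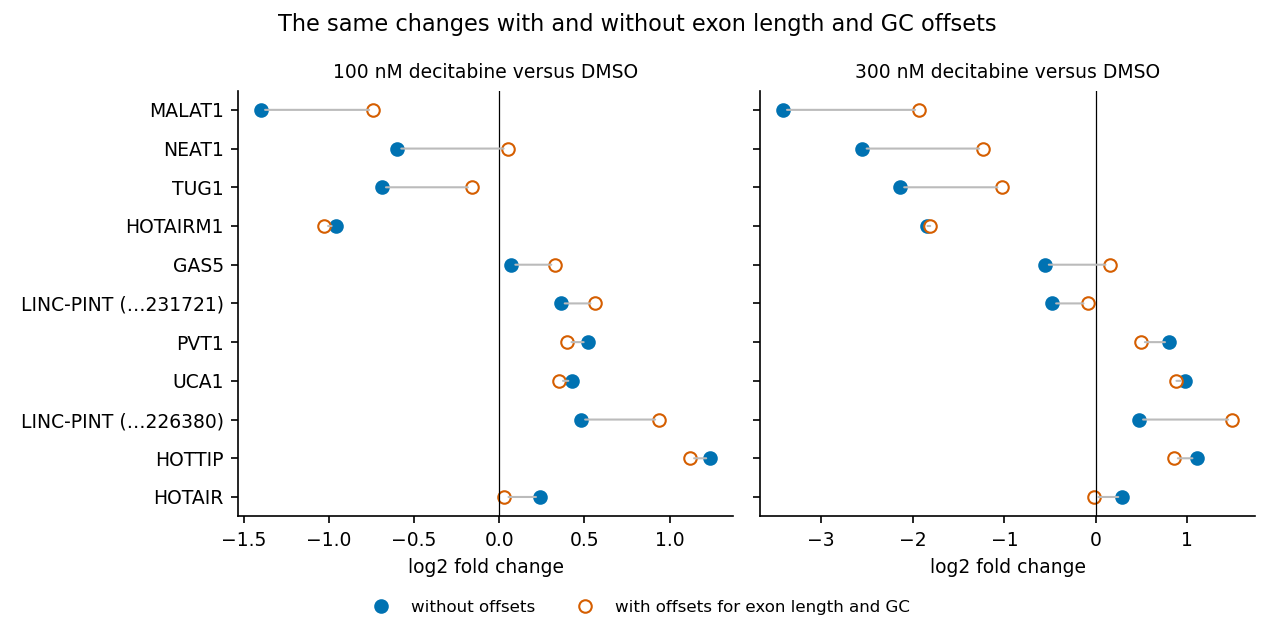
Log2 fold change (x axis) of each gene model against DMSO at 100 nM (left) and 300 nM (right), as fitted (filled) and after correcting for exon length and GC content by offsets (open). MALAT1 moves to -1.93 at 300 nM and stays called, NEAT1 crosses 0 at 100 nM and GAS5 crosses 0 at 300 nM, and HOTAIRM1 and UCA1 barely shift.

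Proteins of the bodies that MALAT1 and NEAT1 belong to were called lower more often than higher, a balance that the offsets undid at 300 nM. Of 20 nuclear speckle proteins 0 were higher and 11 lower at 100 nM, and 2 were higher and 16 lower at 300 nM, with medians of -0.47 and -0.76. Among all genes tested 24.0% were higher and 18.7% lower at 100 nM, and 34.8% and 31.1% at 300 nM. The splicing-associated protein PNN was at 17.2 and 21.2 CPM at 300 nM and 156.1 and 151.9 CPM with DMSO (log2 fold change -3.00, SE 0.14, edgeR adjusted p = 8.5e-12), and the kinases PRPF4B (-2.41) and CLK1 (-2.21) and the splicing factor SRSF11 (-2.07) were also called lower. With the offsets the list held 6 higher and 8 lower at 100 nM and 8 higher and 7 lower at 300 nM. PNN (edgeR adjusted p = 1.1e-10), PRPF4B (-0.59) and CLK1 (-0.40) stayed called lower at 300 nM, and SRSF11 did not (-0.09, adjusted p = 0.207).

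Of 20 paraspeckle proteins 0 were higher and 14 lower at 100 nM, and 1 was higher and 13 lower at 300 nM, both with a median of -0.46. All genes tested gave 24.0% higher and 18.7% lower at 100 nM, and 34.8% and 31.1% at 300 nM. The RNA-binding proteins HNRNPA1 (-1.13), HNRNPH3 (-1.35) and HNRNPR (-1.36) and the cleavage factor subunit NUDT21 (-1.34) were called lower at 300 nM. With the offsets 2 were higher and 9 lower at 100 nM and 9 higher and 9 lower at 300 nM. HNRNPR (0.80) and NUDT21 (0.35) were then called higher, and HNRNPH3 (-0.62) and HNRNPA1 (-0.39) lower. At 300 nM 0 were called higher when either DMSO library was left out, and 2 when 300 nM library 2 was. The lists rest on the same libraries as the members, and were chosen by name.

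**Figure D4:**
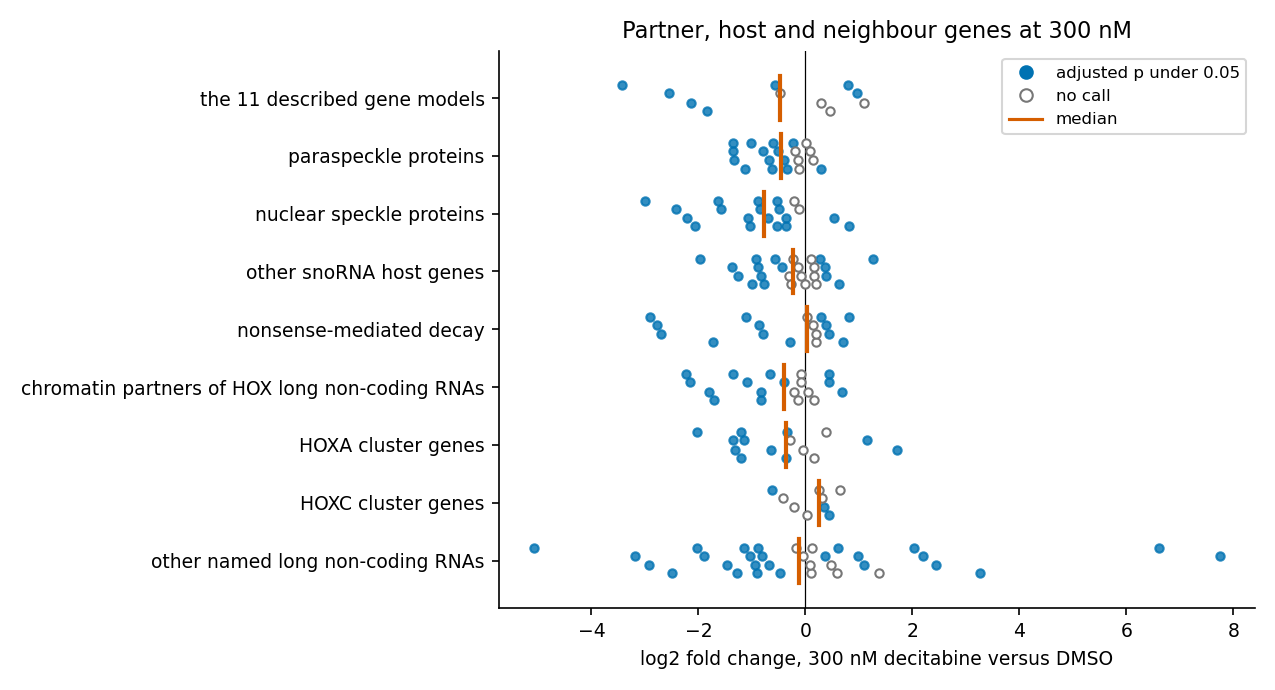
Log2 fold change at 300 nM against DMSO (x axis) of every tested gene in the lists of partners, hosts, neighbours and other long non-coding RNAs, beside the 11 gene models; filled points have an edgeR adjusted p under 0.05 and the orange bar is the median. Nuclear speckle proteins have the lowest median (-0.76); with exon length and GC offsets that median was -0.05.

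The protein-coding genes named here beside NEAT1 and TUG1 were not called lower at 300 nM against DMSO. FRMD8, 9.2 kb from NEAT1, was at 184.2 and 161.7 CPM at 300 nM and 69.7 and 70.8 CPM with DMSO (log2 fold change 1.30, edgeR adjusted p = 1.4e-08; 0.55 with the offsets). MORC2, whose model begins 0.9 kb from that of TUG1, rose by 0.41 at 300 nM (edgeR adjusted p = 0.003). SMTN, 84.7 kb from TUG1, had no call at 300 nM (0.18, edgeR adjusted p = 0.146) but was called lower at 100 nM (-0.60, edgeR adjusted p = 1.7e-04). Next to HOTAIRM1, HOXA2 fell as given above. ZBTB37, which overlaps the span of GAS5, fell by 2.33 (edgeR adjusted p = 2.2e-08) and came to -0.31 with the offsets (adjusted p = 0.057). MKLN1, which shares 81 exon bases with the larger LINC-PINT model on the opposite strand, fell by 1.70 (edgeR adjusted p = 8.3e-09) and was 0.46 with the offsets (adjusted p = 1.8e-04).

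Because counting ignored strand, the annotated opposite-strand partners were read beside each member. The partners of MALAT1 (AP000769.2, 396 shared bases) and TUG1 (AC004542.1 and AC004542.2, 264 and 546 shared bases) had 0 reads in all 6 libraries, where reads in the shared bases are given to no gene. GAS5-AS1 shares 42 bases with GAS5 and had 39 reads at 300 nM and 85 with DMSO over both libraries. NEAT1 has no annotated opposite-strand exon in its span. Shared bases on either strand made up 2.1% of the exon bases of NEAT1, 6.2% of MALAT1, 14.4% of TUG1, 1.2% of GAS5, 8.8% of PVT1 and 13.6% of UCA1. Unannotated antisense reads cannot be told apart from those of the member.

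Per exon length, the order of the members changed with dose. In CPM per kb of exon the DMSO group ran from MALAT1 at 48.4 through GAS5 at 24.9, TUG1 at 11.8, NEAT1 at 7.82, HOTAIRM1 at 7.03, UCA1 at 4.25 and PVT1 at 1.83 to the larger LINC-PINT model at 0.244. HOTAIR (0.0564), the smaller LINC-PINT model (0.0420) and HOTTIP (0.0196) came last, with HOTAIR and that LINC-PINT model overlapping. At 100 nM GAS5 led at 26.1 CPM per kb before MALAT1 at 18.3, and UCA1 at 5.71 and NEAT1 at 5.17 overlapped. At 300 nM GAS5 led at 16.9 CPM per kb, followed by UCA1 at 8.30, MALAT1 at 4.54, PVT1 at 3.19, TUG1 at 2.68, HOTAIRM1 at 1.96 and NEAT1 at 1.34, with no overlap between neighbours. The length of NEAT1 is that of its long form, so its value per kb would be higher if the short form gave most reads. Exon length here includes bases shared with other genes, where reads were given to no gene. Those were 44.9% for HOTAIRM1, 31.6% and 29.6% for the smaller and larger LINC-PINT models, 20.1% for HOTTIP and 14.4% for TUG1. Values of such models are therefore too low. The order of close members, such as PVT1, TUG1 and HOTAIRM1 at 300 nM, may differ over unshared bases.

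**Figure D5:**
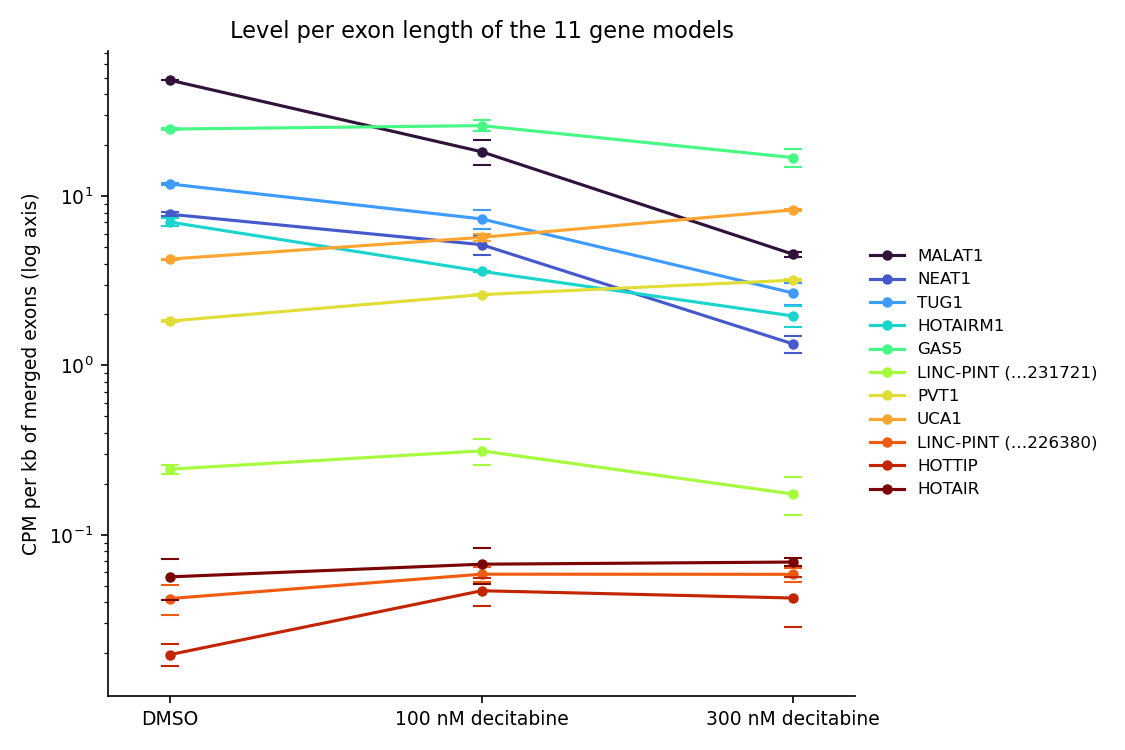
Level per exon length (CPM per kb of merged exons, shared bases included, log axis) of the 11 gene models in the DMSO, 100 nM and 300 nM groups. Points joined by lines are group means and dashes are libraries (n = 2). MALAT1 is first with DMSO at 48.4 and below GAS5 and UCA1 at 300 nM at 4.54, and GAS5 is first at both doses.

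The libraries of a group also differed from each other across the set. At 300 nM library 1 was below library 2 for all 11 gene models and for 52.2% of all genes tested. At 100 nM that was so for 8 of 11, the exceptions being HOTAIRM1, UCA1 and the smaller LINC-PINT model, and for 50.8% of all genes. With DMSO the order was the opposite for most members, with library 1 above library 2 for 8 of 11 and for 43.6% of all genes, and below it for 3 of 11. The size varied, with 17.5 ± 0.193 CPM (SD, n = 2) for PVT1 at 300 nM beside 27.2 ± 5.73 CPM for TUG1. SETD2 showed the same order of libraries at both doses. The part of this library difference in the results was not tested.

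Profiles most like a member's were found among 14434 genes whose mean was 1 CPM or more, by the distance between log2 CPM values centred over the 6 libraries. Nearest to MALAT1 were ESF1 at 0.16 and CPLANE1 at 0.18, to NEAT1 ZNF644 and ARHGAP12 at 0.14, and to TUG1 AGTPBP1 at 0.06 and ZNF28 at 0.08. HOTAIRM1 lay nearest to HSF4 at 0.15 and GRB14 at 0.19, GAS5 to TLK2 and MSL2 at 0.10, PVT1 to BUD31 and TSG101 at 0.06, and UCA1 to MAP2K1 at 0.05 and BAMBI at 0.07. Within a distance of 1 lay 503 genes for MALAT1 and 1960 for TUG1, so such profiles were common.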

How the data were processed

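Poly-A RNA was sequenced in 6 libraries, 2 per group, grouped by the labels' treatment field. The authors' deposited files give raw read counts per gene for 58381 GENCODE v28 gene models. They were made with STAR, SAMtools and featureCounts 1.5.0-p3, per the submitters' processing notes and the file headers. The recorded command sets no paired-end, strand, multi-overlap or multi-mapping option, so mates were counted as single reads on either strand and reads in exons of 2 genes were not counted. Among counts of 1 to 10, the share of even counts was 70.0% to 74.4%. The notes name hg19 and GRCh37, but the coordinates are GRCh38: 56933 identifiers matched GENCODE v29 with their version and all 56933 had its coordinates there. The authors also deposited a matrix of log2 values for 37599 genes, labelled VSN and read here as variance-stabilised. Its computation is not further described in the sources used here. The matrix served only as an alternative, tested with limma.

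Counts were filtered with filterByExpr (minimum count 10; 23160 genes kept), scaled by TMM (factors 0.915 to 1.037) and tested with edgeR 4.0.16 (limma 3.58.1, R 4.3.3), quasi-likelihood, two-sided, with 3 residual degrees of freedom and a biological coefficient of variation of 11.8%. The steps were tested on simulated data with 200 changed genes per dose. Of 1.5-fold changes 49.3% (100 nM against DMSO) and 38.8% (300 nM against DMSO) were recovered. Of 2-fold changes it was 85.1% and 86.6%, and of 4-fold changes 97.0% and 100.0%. False calls made up 3.1% and 3.8% of calls. The simulation changed only 200 of 23160 genes, while 42.7% (100 nM) and 65.9% (300 nM) were called against DMSO in the data. Its shares of recovered and false calls may therefore not hold for the data, and a missing call does not exclude changes near 1.5-fold. CPM use TMM-scaled library sizes, and the floor of 3 reads covers only the counting error of independent reads. Offsets for exon length and GC were smooth fits per library (mgcv 1.9.3), centred on their median, for the 23124 genes (99.8%) with a GC value. Alternatives were RLE and upper-quartile scaling, no filter, DESeq2 1.42.0, only the groups compared, each library left out, a replicate block and the offsets. Promoters came from RefSeq.

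Text names the members; up to 4 called genes per list with the smallest adjusted p at 300 nM; exon-sharing and nearest protein-coding genes; and 2 like profiles per member. In the neighbour, overlap and profile groups some are left unnamed. A few further decay and chromatin partner genes are named for calls in the other direction, chosen after seeing the data. The values of 2 neighbouring genes are not reported here. The members and lists were chosen with earlier results of these data known.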

Additional observations from a re-analysis of the deposited data

How the results depend on the processing

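Of 462 recomputed member values, 423 kept direction and side of the threshold, 9 kept their sign and lost their call, 9 gained a call and 21 changed sign, of which NEAT1 at 100 nM and GAS5 at 300 nM had been called. Every called decrease of MALAT1 and HOTAIRM1, and the calls of NEAT1, TUG1, PVT1 and UCA1 at 300 nM against DMSO, held under all alternatives. The number called higher at 100 nM against DMSO (2) was 0 to 2 with 1 library left out. The number called lower there (4) was 2 with the length and GC offsets, with which GAS5 was also called higher there. LINC-PINT ENSG00000226380 was called higher at 300 nM against DMSO with the offsets. The number higher at 300 nM against 100 nM (1) was 2 with RLE, upper-quartile factors, DESeq2, the deposited log2 matrix or the replicate block, PVT1 joining UCA1. Sign changes with the offsets were NEAT1 at 100 nM (0.05), GAS5 at 300 nM (0.15), HOTAIR at 300 nM (-0.02 against DMSO, -0.05 against 100 nM) and LINC-PINT ENSG00000226380 between doses (0.55). That LINC-PINT value between doses (0.00, just below 0) was also 0.07 with RLE and DESeq2, 0.16 with upper quartile, 0.05 in the deposited matrix, 0.02 with the block, and -0.15 to 0.14 with a library left out. HOTTIP between doses was 0.03 with upper quartile and -0.71 to 0.26 with a library left out. HOTAIR, with a library left out, was -0.14 to 0.70 at 100 nM, -0.06 to 0.74 at 300 nM and -0.29 to 0.43 between doses, and GAS5 at 100 nM was -0.04 to 0.20. The cause of these moves was not tested. Upper-quartile factors shifted the median of all genes by 0.08, 0.25 and 0.17. The total of all called genes and the total of called list genes stayed within 1.5 times, but counts of single lists did not, as given beside them; this recomputation of the lists was chosen after seeing the data. At 300 nM against DMSO upper-quartile factors gave 4 higher and 10 lower paraspeckle, 8 and 9 snoRNA host, 9 and 7 decay, 4 and 9 chromatin partner, 3 and 6 HOXA, 4 and 1 HOXC genes and 14 and 14 other long non-coding RNAs. No pairing of libraries by equal replicate number was detected (correlations 0.01, 0.00 and 0.06). Counting noise in genes with few reads also lowers such correlations, so pairing was not shown to be absent. With the replicate block LINC-PINT ENSG00000231721 was called at 300 nM against DMSO (-0.52, edgeR adjusted p = 0.035). Depth limits HOTAIR, HOTTIP and LINC-PINT ENSG00000226380, and 2 libraries per group limit all.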

Other observations

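Beyond the members, 34 of 47 other named long non-coding RNAs in the count files could be tested. At 100 nM 5 were higher and 8 lower against DMSO, and at 300 nM 10 were higher and 16 lower, with medians of 0.07 and -0.11. Of all 4247 long non-coding RNA genes tested, 20.2% were higher and 9.65% lower at 100 nM, and 24.8% and 25.5% at 300 nM. With the exon length and GC offsets 12 of the 34 were higher and 7 lower at 100 nM, and 13 higher and 10 lower at 300 nM. At 100 nM 4 were lower without DMSO library 2 or 100 nM library 1, and 8 were higher without 100 nM library 1. NORAD, which binds PUMILIO proteins, had 60.0 and 82.9 CPM at 300 nM and 292.6 and 292.9 CPM with DMSO (log2 fold change -2.03, edgeR adjusted p = 6.8e-10; -1.04 with the offsets). FTX, from the X-inactivation centre, had 1.88 and 1.77 CPM at 300 nM and 14.9 and 18.3 CPM with DMSO (-3.19, edgeR adjusted p = 2.5e-10; -0.72 with the offsets). HCP5, from the major histocompatibility locus, went the other way, with 42.9 and 37.5 CPM at 300 nM and 0.531 and 0.287 CPM with DMSO (6.61, edgeR adjusted p = 1.0e-13), and its 100 nM libraries stood at 25.6 and 26.6 CPM. HEIH had 452 reads over both 300 nM libraries, 30 over both 100 nM libraries and 2 over both DMSO libraries (edgeR adjusted p = 3.5e-09 at 300 nM against DMSO).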
